A study of Mus musculus with 12 samples.

Results

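The 8 genes described here encode enzymes that break down the aromatic amino acids: Tdo2, Kmo, Kynu and Haao for tryptophan, and Tat, Hpd, Hgd and Fah for tyrosine, into which phenylalanine is converted. They were chosen by name, as a list, from 28030 genes in the deposited table, and all 8 passed the filter on low counts that left 12086 genes for testing. Total RNA of mouse liver cells was sequenced in 12 libraries, 3 in each of 4 groups. Fasted pericentral (PC) libraries and fasted periportal (PP) libraries came from mice kept for 24 h without food or sucrose. Fed PC and fed PP libraries came from mice that had eaten for 4 h with 20% sucrose in their water. Sample records list 20% sucrose for the fasted libraries too, and when those mice had it is not stated here. Both kinds of mice were killed at 13:00. All mice were 12-week-old wild-type (WT) females on a normal chow, lab diet 5053, and had been trained for 3 days to a cycle of 16 h without food and 8 h with food. PC hepatocytes surround the central vein, where blood leaves a liver lobule, and PP hepatocytes border the portal tract, where it enters. Sample titles mention digitonin. This detergent permeabilises cells, and when infused from one end of the lobule it removes that zone's hepatocytes before the remainder are harvested, so a PC or PP library is an enriched population and not a pure one. The labels call the libraries biological replicates and do not say whether PC and PP libraries of the same number came from one mouse, so a p-value here reflects only how much these libraries vary.

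The liver is the main site where surplus tryptophan and tyrosine are degraded. Tryptophan dioxygenase, encoded by Tdo2, opens the indole ring in the first, rate-limiting step of the kynurenine pathway. Kmo then hydroxylates kynurenine, Kynu cleaves off alanine, and Haao opens the remaining ring, after which the carbon goes either to NAD+ or, through Acmsd, towards acetyl-CoA. In the other branch phenylalanine is first turned into tyrosine, Tat removes the amino group of tyrosine, Hpd and Hgd oxidise the product, and Fah splits the last intermediate into fumarate, which can feed glucose synthesis, and acetoacetate, a ketone body. Tdo2 and Tat are textbook targets of glucocorticoids in liver, and loss of Hpd, Hgd or Fah causes inherited disorders of tyrosine breakdown in humans.

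Tdo2, Tat and Hpd are the members whose RNA differed most between groups, and the sequence around the start of each is shown for that reason. Each run holds the 250 bases before and the 50 bases after the RefSeq start of the gene, read 5′ to 3′ on the coding strand, on the assembly GRCm38.p6. The positions are chr3:81975679-81975978 on the minus strand for Tdo2, chr8:109990186-109990485 on the plus strand for Tat and chr5:123182674-123182973 on the minus strand for Hpd. Capitals mark a match to any of 6 motifs searched on both strands.
Tdo2: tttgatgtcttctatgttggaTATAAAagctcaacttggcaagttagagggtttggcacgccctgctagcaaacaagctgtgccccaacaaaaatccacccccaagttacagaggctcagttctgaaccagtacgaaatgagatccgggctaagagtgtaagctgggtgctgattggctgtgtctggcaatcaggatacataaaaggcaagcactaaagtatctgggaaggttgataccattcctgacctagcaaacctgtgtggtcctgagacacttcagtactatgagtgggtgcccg
Tat: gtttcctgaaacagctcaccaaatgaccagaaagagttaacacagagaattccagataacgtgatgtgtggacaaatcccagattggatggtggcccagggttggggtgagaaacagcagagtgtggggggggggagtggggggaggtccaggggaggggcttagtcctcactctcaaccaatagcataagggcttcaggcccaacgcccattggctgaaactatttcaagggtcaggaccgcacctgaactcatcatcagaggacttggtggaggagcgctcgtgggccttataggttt
Hpd: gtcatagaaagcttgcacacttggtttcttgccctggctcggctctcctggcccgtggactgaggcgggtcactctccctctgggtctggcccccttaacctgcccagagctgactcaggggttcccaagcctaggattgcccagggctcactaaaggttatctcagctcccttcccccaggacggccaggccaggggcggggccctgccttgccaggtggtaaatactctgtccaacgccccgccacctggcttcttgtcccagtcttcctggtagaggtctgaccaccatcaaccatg
The Tdo2 window held TATAAA, the letters of a TATA box, beginning 229 bases before the start, far upstream of where a TATA box acts, and the windows of Tat and Hpd held no match to any of the 6. RefSeq gave such a window for 7 of the 8 members, all but Kynu. TATAAA was in 2 of those 7 windows, Tdo2 and Hgd, and in 13.6% of 32851 mouse windows of the same length. AGAACA, the core of a glucocorticoid receptor half-site, was in 2 of the 7, Kmo and Haao, against 19.0% of all windows. The C/EBP motif TTGCNNAA was in 1 of 7 (Hgd; 10.8% of all). GTAAACA for FOXO, TGACGT for CREB and CAAAGTCCA for HNF4 were in 0 of the 7, against 3.6%, 7.5% and 0.5% of all windows. No match says only that these letters are not in these windows.

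The deposited values are estimated counts, 16245846 to 27449412 per library, and levels are given as CPM, the count per unit of library size, with sizes scaled by trimmed means (TMM). Zone markers followed the labels: in both states all 10 pericentral genes were higher and all 10 periportal genes lower in every PC library than in any PP library. The edgeR test at an adjusted p under 0.05 called 10 of the pericentral genes in fasted mice and 9 in fed mice, and 6 of the periportal genes in each state. One library stood apart. Fasted PC replicate 1 had 172 CPM of Glul, the glutamine synthetase of the cells nearest the central vein, where replicates 2 and 3 of its group had 3639 and 2353 CPM. The pericentral gene Oat was also low in it, at 452 against 2309 and 1971 CPM. Periportal genes were raised in it, with Hal at 579 against 69.9 and 109 CPM and Cyp2f2 at 242 against 67.8 and 75.4 CPM. The periportal gene Pck1 was not raised, at 4382 against 4672 and 4516 CPM. Markers of other cells were low: summed levels were 0.824 to 11.1 CPM for macrophages, 5.2 to 29.9 CPM for endothelium, 1.3 to 16.3 CPM for stellate cells and 13.5 to 47.3 CPM for bile duct cells. Blood cell markers summed to 1.55 to 234 CPM in fasted PC, 1.15 to 80.6 CPM in fasted PP, 0.383 to 20.0 CPM in fed PC and 2.6 to 3.5 CPM in fed PP libraries. Albumin RNA took 6.70% to 8.48% of the counts in PC and 10.63% to 13.24% in PP libraries. The part of blood cells or of the albumin share in the results was not tested. In bulk samples, fewer cells of a type and less RNA per cell cannot be told apart.

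**Figure D1:**
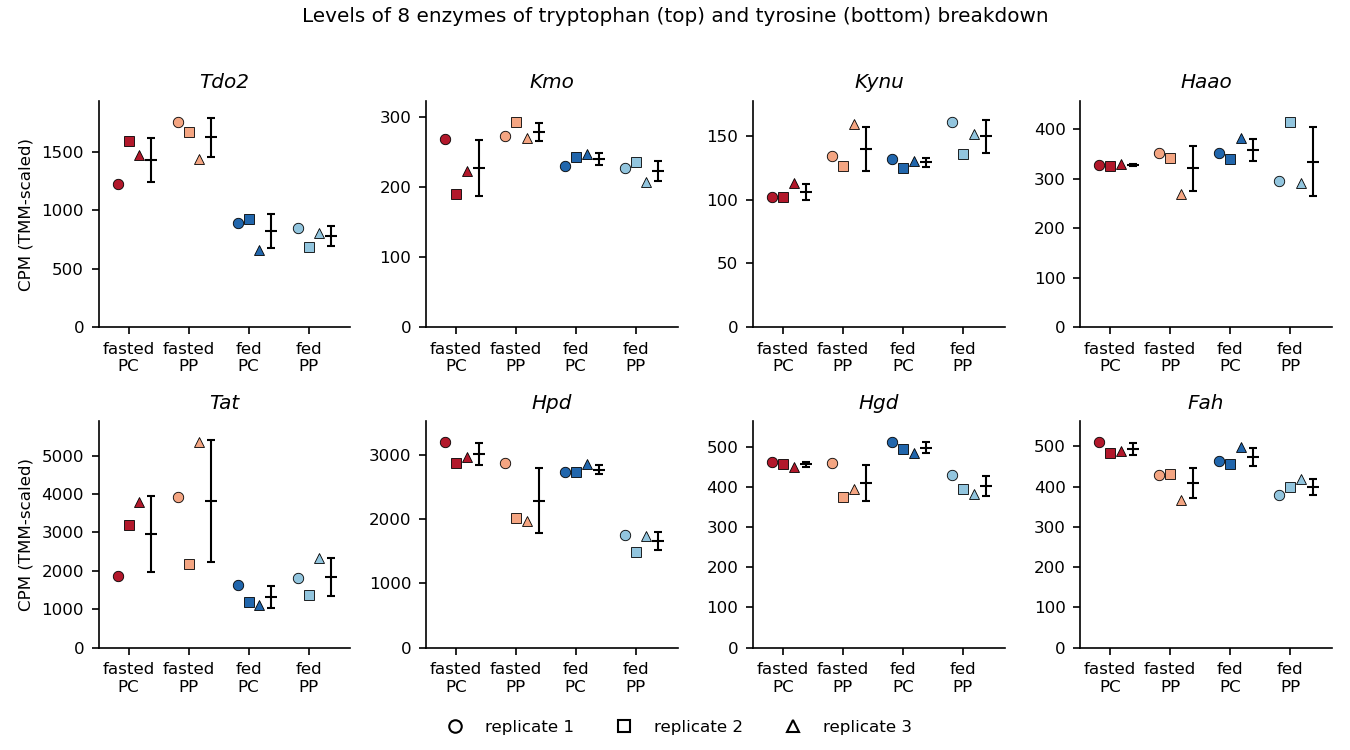
Level of each member in every library (TMM-scaled CPM, y axis from 0) in the 4 groups on the x axis, with bars for the group mean ± SD (n = 3). Tdo2 was at 1228 CPM or more in every fasted library and at 927 CPM or less in every fed one, Tat was spread widely within groups, and Hpd was lowest in fed PP.

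Tdo2 was the member with the clearest response to fasting, in both zones. It had 1228, 1592 and 1475 CPM in fasted PC and 1760, 1669 and 1443 CPM in fasted PP libraries. It had 895, 927 and 660 CPM in fed PC and 849, 687 and 808 CPM in fed PP libraries. All 6 fasted libraries were above all 6 fed ones, and the PC and PP values of each state overlapped. The log2 fold change with fasting was 0.79 ± 0.16 (SE) in PC (edgeR adjusted p = 0.0039) and 1.06 ± 0.16 in PP (edgeR adjusted p = 0.00091). Averaged over the zones it was 0.92 ± 0.11 (edgeR adjusted p = 5.6e-05). Without fasted PC replicate 1 the change in PC was 0.87. No difference between PC and PP passed the test, with log2 fold changes of -0.18 in fasted mice (edgeR adjusted p = 0.59), -0.09 there without that library, and 0.08 in fed mice (edgeR adjusted p = 0.87). Tdo2 lies on chromosome 3 from 81957090 to 81976202, minus strand, on GRCm38, the build called mm10, and the estimated counts are of its transcripts.

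Downstream of Tdo2, no change of Kmo, Kynu or Haao with fasting passed the test in either zone. Kmo had 269, 190 and 224 CPM in fasted PC and 231, 243 and 247 CPM in fed PC libraries. It had 274, 294 and 270 CPM in fasted PP and 227, 236 and 208 CPM in fed PP libraries. In PP the fasted and fed values did not overlap, and in PC they did. The log2 fold change with fasting was 0.32 ± 0.12 in PP (edgeR adjusted p = 0.093) and -0.08 ± 0.12 in PC (edgeR adjusted p = 0.70). With DESeq2 the PP change was 0.33 and passed the test (adjusted p = 0.046). Without fasted PC replicate 1, which is in neither PP group, the PP change stayed at 0.32 and had an edgeR adjusted p = 0.044. The comparison of fasted PC with fasted PP was -0.29 ± 0.12 (edgeR adjusted p = 0.21). Without that library, the highest of the fasted PC group, it was -0.44 (edgeR adjusted p = 0.037).

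Kynu, the enzyme that cleaves off alanine, was lower in PC than in PP in fasted mice and averaged over both states. It had 102, 102 and 113 CPM in fasted PC against 134, 126 and 159 CPM in fasted PP libraries, and 132, 125 and 130 CPM in fed PC against 161, 136 and 151 CPM in fed PP libraries. The zones did not overlap in either state. The log2 fold change of PC against PP was -0.40 ± 0.11 in fasted mice (edgeR adjusted p = 0.046), -0.21 ± 0.11 in fed mice (edgeR adjusted p = 0.36) and -0.31 ± 0.08 averaged over both (edgeR adjusted p = 0.018). The call in fasted mice ended when any 1 library was left out except fed PP replicates 1 and 2 and fasted PP replicate 2, and without fasted PC replicate 1 the edgeR adjusted p was 0.089. The averaged call ended without fed PC replicate 2 (edgeR adjusted p = 0.058) and with library totals in place of TMM (-0.23, edgeR adjusted p = 0.082). With fasting, Kynu gave -0.29 ± 0.11 in PC (edgeR adjusted p = 0.077), where all 3 fasted values were below all 3 fed ones, and -0.10 ± 0.11 in PP (edgeR adjusted p = 0.57). The fall in PC passed the test with DESeq2 (adjusted p = 0.043), with only the 2 groups fitted (edgeR adjusted p = 0.030), with library totals (edgeR adjusted p = 0.041) and without fasted PP replicate 3 (edgeR adjusted p = 0.038). Averaged over the zones, Kynu gave -0.19 ± 0.08 (edgeR adjusted p = 0.065), and this passed the test in 5 of 18 alternatives. Bile duct cell markers were also lower in PC. The 5 genes summed to 13.5 to 25.1 CPM in fasted PC against 33.7 to 37.3 CPM in fasted PP, and to 23.7 to 27.9 CPM in fed PC against 36.1 to 47.3 CPM in fed PP libraries. Of the 3 that could be tested, 2 were lower in fasted PC. Their part in the Kynu difference was not tested.

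Haao, the ring-opening dioxygenase, passed the test in no comparison. Its group means were 327 ± 1.37 CPM in fasted PC, 321 ± 44.9 CPM in fasted PP, 357 ± 22.0 CPM in fed PC and 334 ± 69.7 CPM in fed PP libraries (SD, n = 3 each). Log2 fold changes lay between -0.13 and 0.10 over the 4 comparisons of 2 groups. The ratio of Tdo2 to Kynu, computed after the values were seen and not tested, was 19.1, 24.8 and 20.6 in fasted PC, 20.8, 20.9 and 14.4 in fasted PP, 10.8, 11.7 and 8.03 in fed PC and 8.35, 7.99 and 8.45 in fed PP libraries, from levels per kilobase of exon. The lowest fasted ratio was above the highest fed one.

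Among the tyrosine enzymes, Tat was higher after fasting but varied widely. It had 1869, 3185 and 3804 CPM in fasted PC against 1639, 1179 and 1104 CPM in fed PC libraries. It had 3935, 2174 and 5364 CPM in fasted PP against 1812, 1361 and 2338 CPM in fed PP libraries. In PC the groups did not overlap, and in PP fasted replicate 2 fell below fed replicate 3. The log2 fold change with fasting was 1.18 ± 0.35 in PC (edgeR adjusted p = 0.034), 1.06 ± 0.35 in PP (edgeR adjusted p = 0.058) and 1.12 ± 0.25 averaged over the zones (edgeR adjusted p = 0.0048). The call in PC ended without fed PC replicate 2 or 3, fasted PC replicate 2 or 3, or fed PP replicate 1, with an edgeR adjusted p of up to 0.12. It also ended with no filter on low counts (edgeR adjusted p = 0.093). Without fasted PC replicate 1, the lowest fasted library, the change in PC was 1.40 (edgeR adjusted p = 0.016). The change in PP passed the test in 4 of 19 alternatives. These were without fasted PC replicate 1 (edgeR adjusted p = 0.036) and without fasted PP replicate 2 (edgeR adjusted p = 0.018). The others were DESeq2 (adjusted p = 0.0061) and edgeR with its robust option off (adjusted p = 0.047). Fasted PC replicate 1 is in neither PP group, and leaving it out kept the change in PP at 1.06. No difference between PC and PP passed the test: -0.37 ± 0.34 in fasted mice (edgeR adjusted p = 0.63), -0.14 there without fasted PC replicate 1, and -0.49 ± 0.34 in fed mice (edgeR adjusted p = 0.56). Tat lies on chromosome 8 from 109990437 to 109999803, plus strand, on GRCm38.

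Hpd, the dioxygenase that acts after Tat, was the member with a clear difference between zones. It had 3211, 2878 and 2973 CPM in fasted PC against 2876, 2026 and 1972 CPM in fasted PP libraries. It had 2733, 2740 and 2860 CPM in fed PC against 1752, 1498 and 1743 CPM in fed PP libraries. PC lay above PP without overlap in fed mice by a wide margin, and in fasted mice narrowly, between 2878 CPM in fasted PC replicate 2 and 2876 CPM in fasted PP replicate 1. The log2 fold change of PC against PP was 0.74 ± 0.14 in fed mice (edgeR adjusted p = 0.010), 0.40 ± 0.14 in fasted mice (edgeR adjusted p = 0.14) and 0.57 ± 0.10 averaged over both (edgeR adjusted p = 0.0025). Leaving out fasted PP replicate 1, the fasted difference was 0.58 (edgeR adjusted p = 0.020), and leaving out fasted PC replicate 1 it was 0.35 (edgeR adjusted p = 0.22). With fasting Hpd gave 0.46 ± 0.14 in PP (edgeR adjusted p = 0.042) and 0.12 ± 0.14 in PC (edgeR adjusted p = 0.59), and 0.29 ± 0.10 averaged over the zones (edgeR adjusted p = 0.041). Among the 12 single omissions the PP call held in 3, those of fasted PC replicate 1 and of replicates 2 and 3 of fasted PP, and without fasted PP replicate 1 the change was 0.28 (edgeR adjusted p = 0.14). The averaged call likewise held in 3, those of fed PP replicate 1 and of replicates 2 and 3 of fasted PP, and without fasted PC replicate 1 it gave 0.26 (edgeR adjusted p = 0.076). With no filter on low counts it also ended (edgeR adjusted p = 0.061). Hpd lies on chromosome 5 from 123171807 to 123182727, minus strand, on GRCm38.

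Hgd and Fah, the last enzymes of the tyrosine branch, were the members with the least spread within groups. Hgd had 463, 459 and 451 CPM in fasted PC against 462, 375 and 397 CPM in fasted PP libraries, and 514, 497 and 487 CPM in fed PC against 431, 396 and 383 CPM in fed PP libraries. Fah had 511, 483 and 487 CPM in fasted PC against 429, 432 and 367 CPM in fasted PP libraries, and 464, 457 and 498 CPM in fed PC against 380, 398 and 418 CPM in fed PP libraries. PC values of Fah lay above PP values in both states, and those of Hgd in fed mice. Within a state neither passed the test, at 0.27 ± 0.10 in fasted mice (edgeR adjusted p = 0.16) and 0.25 ± 0.10 in fed mice (edgeR adjusted p = 0.23) for Fah, and 0.15 in fasted mice (edgeR adjusted p = 0.48) and 0.31 ± 0.10 in fed mice (edgeR adjusted p = 0.13) for Hgd. Fah in fasted mice passed in 2 of 20 alternatives, DESeq2 (adjusted p = 0.038) and library totals (edgeR adjusted p = 0.047). Hgd in fed mice also passed in 2 of 20, DESeq2 (adjusted p = 0.011) and library totals (edgeR adjusted p = 0.042). The averaged log2 fold change of PC against PP was 0.26 ± 0.07 for Fah (edgeR adjusted p = 0.031) and 0.23 ± 0.07 for Hgd (edgeR adjusted p = 0.059). This averaged difference of Hgd passed in 5 of 19 alternatives. The averaged Fah call held without fasted PC replicate 1 (edgeR adjusted p = 0.044), fed PP replicate 3, or replicate 1 or 2 of fasted PP. It ended without any other 1 library or with no filter on low counts (edgeR adjusted p = 0.057). With fasting, Fah gave 0.06 ± 0.10 in PC (edgeR adjusted p = 0.71) and 0.04 ± 0.10 in PP (edgeR adjusted p = 0.84). Hgd gave -0.13 ± 0.10 in PC (edgeR adjusted p = 0.43) and 0.03 ± 0.10 in PP (edgeR adjusted p = 0.88).

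**Figure D2:**
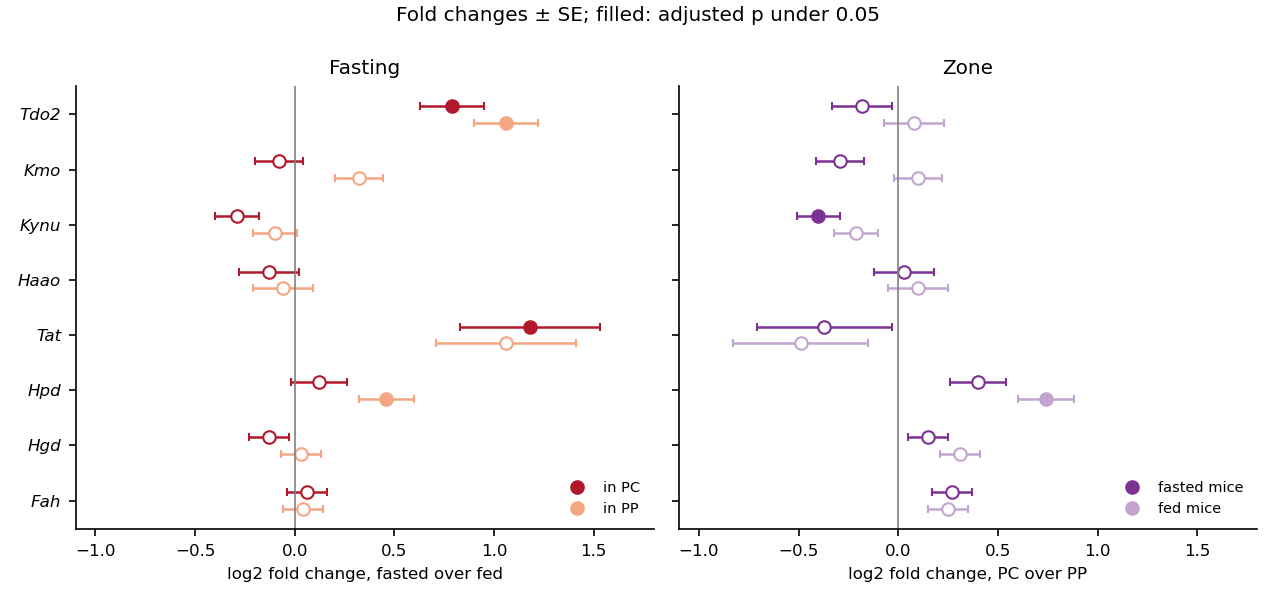
Log2 fold change of each member with its SE (x axis) for fasted over fed in PC and PP (left) and for PC over PP in fasted and fed mice (right), with filled symbols for an adjusted p under 0.05. Tdo2 and Tat sit farthest to the right with fasting, and Hpd with zone in fed mice.

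These counts were read against all genes tested. With fasting in PC, 2 of 8 rose, Tdo2 and Tat, where 11.1% of all genes rose, 10.2% fell and 21.4% were called in either direction. In 6 of 8 the fasted and fed PC groups did not overlap, where 41.7% of all genes did so. With fasting in PP, 2 of 8 rose, Tdo2 and Hpd, where 8.39% of all genes rose, 9.5% fell and 17.9% were called in either direction. In 3 of 8 the groups in PP did not overlap, against 34.6% of all genes. Averaged over the zones, 3 of 8 rose, where 17.8% of all genes rose, 17.5% fell and 35.3% were called in either direction. Between fed PC and fed PP, 1 of 8 was called, Hpd, where 2.24% of all genes were higher in PC, 2.47% lower and 4.72% called in either direction. Between fasted PC and fasted PP, 1 of 8 was called, Kynu, where 3.35% of all genes were higher in PC, 3.05% lower and 6.4% called in either direction. Averaged over both states, Hpd and Fah were higher and Kynu lower in PC, 3 of 8, where 6.47% of all genes were higher, 6.5% lower and 13% called in either direction. The balance of higher and lower calls depends on the scaling. With library totals in place of TMM, 1025 genes rose and 1545 fell with fasting in PC, 772 rose and 1523 fell in PP, and 1588 rose and 2648 fell averaged over the zones. Between zones, library totals gave 377 genes higher and 241 lower in fed PC, 595 higher and 302 lower in fasted PC, and 1261 higher and 619 lower averaged over both states. Groups of 4 of 8 members did not overlap between zones in fed mice (26% of all genes) and in fasted mice (22% of all genes). The median log2 fold change of the members with fasting was -0.007 in PC and 0.178 in PP, against 0.004 and 0.005 over all genes. No member was called for a fasting response that differed between PC and PP, and neither was any gene (0%). An unadjusted edgeR p under 0.05 was found there for 465 of 12086 genes (3.85%), Kmo among them. That share is no larger than a threshold of 0.05 gives on average when no gene differs. DESeq2 called 11 genes for the difference of responses. That difference was -0.27 ± 0.22 for Tdo2, -0.39 ± 0.17 for Kmo and -0.34 ± 0.20 for Hpd on the log2 scale (edgeR adjusted p = 1 for each).

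Levels per kilobase of annotated exon were highest for Hpd and Tat. The length counts every annotated exon of a gene, whether or not liver transcripts include it, so the order depends on the annotation. It was 4.68 kilobases for Haao and 2.62 for Hgd, which averaged 335 and 443 CPM before division by length. Over the 12 libraries Hpd averaged 1146 CPM per kilobase and Tat 1031, ranks 52 and 57 among 12015 genes, and Kynu was the lowest member at 21.3, rank 1646. By group means the order was Hpd, Tat, Tdo2, Fah, Hgd, Haao, Kmo, Kynu in fasted PC and fed PP libraries. In fed PC libraries it was the same except that Fah ranked just above Tdo2, both at 213 CPM per kilobase when rounded. In fasted PP libraries Tat came above Hpd, at 1590 against 1077 CPM per kilobase, though their ranges overlapped. Hpd and Tat also overlapped in fasted PC and fed PP, Fah and Hgd and also Haao and Kmo in fasted PP, and Tdo2 and Fah in fed PC and fed PP. The ratio of Tat to Hpd per kilobase, computed after the values were seen and not tested, was 0.515, 0.979 and 1.13 in fasted PC, 1.21, 0.949 and 2.41 in fasted PP, 0.531, 0.381 and 0.342 in fed PC and 0.915, 0.804 and 1.19 in fed PP libraries. Fed PC libraries gave the lowest ratios apart from fasted PC replicate 1, which overlapped them.

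**Figure D3:**
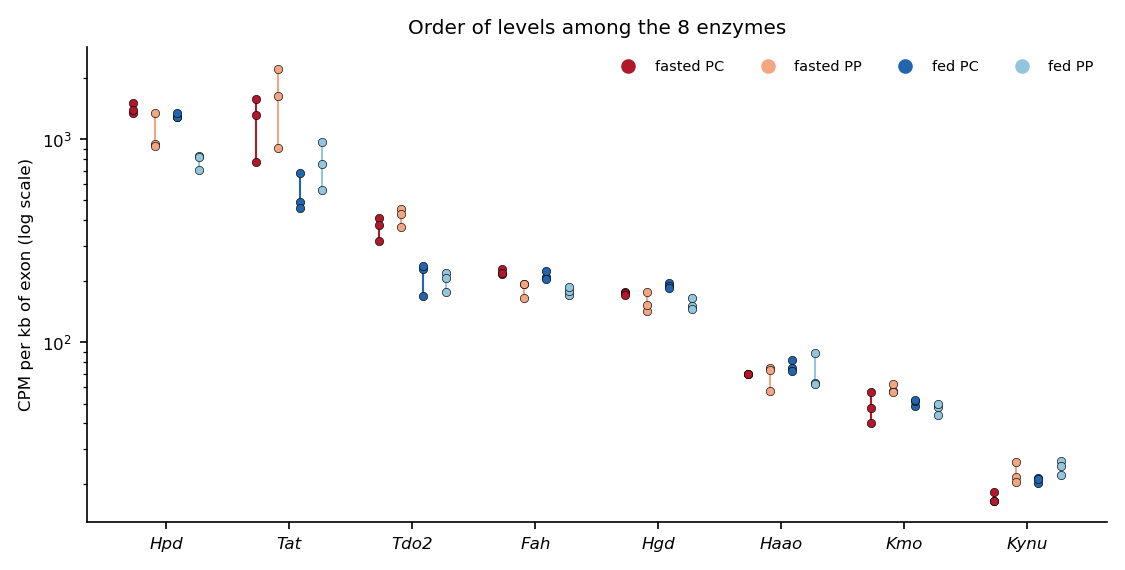
Level of each member in CPM per kilobase of exon (y axis, log scale) in the 4 groups, with a point for each of 3 libraries and a line for their range. Hpd and Tat lead in all 4 groups and Kynu is lowest in each.

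The members differed in how steady they were. The within-group SD of log2 CPM was 0.492 for Tat, above 94.9% of all genes tested, and 0.085 for Fah and 0.092 for Hgd, above 3.4% and 5.1% of genes. The median over all genes was 0.197, and Tdo2 was near it at 0.198. Every member rested on at least 1693 estimated counts in each library, so counting error is small beside this spread. Together the 8 members took 0.79%, 0.94% and 0.98% of counts in fasted PC, 0.93%, 0.71% and 0.99% in fasted PP, 0.73%, 0.68% and 0.68% in fed PC and 0.60%, 0.50% and 0.65% in fed PP libraries.

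As a description over the 12 libraries, which share 4 groups and so follow their differences, Hpd and Fah had a Pearson r of 0.84 in log2 CPM, Hpd and Hgd 0.79, and Tdo2 and Tat 0.78. Kynu ran against Fah at -0.85 and against Hpd at -0.73. Among 8308 genes averaging 5 CPM or more, the closest to Tdo2 were Klf11 at 0.988 and Pcif1 at 0.956, and to Tat were Kctd15 at 0.958 and Lmo4 at 0.947. The closest to Hpd were Trnau1ap at 0.925 and Cyp2d10 at 0.916, to Hgd Pacsin3 at 0.935 and Hibadh at 0.921, and to Fah Tmem230 at 0.957 and Slc25a21 at 0.937. Kynu was closest to Flna at 0.962 and Mrps6 at 0.926, Kmo to Zfp512 at 0.921 and Cdk5 at 0.908, and Haao to Aarsd1 at 0.959 and Tmem208 at 0.826.

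The counts for the lists that follow are to be read against the shares of all genes: 11.1% rose and 10.2% fell with fasting in PC, 8.39% rose and 9.5% fell in PP, and for PC against PP fasted mice had 3.35% higher and 3.05% lower while fed mice had 2.24% higher and 2.47% lower. Of the other genes of the tryptophan route to NAD+ and acetyl-CoA, 14 of 15 could be tested. With fasting 1 rose in PC and 1 in PP, and both calls were Dhtkd1, a dehydrogenase on the way to acetyl-CoA. It had 78.6, 58.5 and 54.4 CPM in fasted PC against 40.0, 42.9 and 44.7 CPM in fed PC libraries, and 72.9, 89.2 and 70.9 CPM in fasted PP against 33.8, 33.1 and 52.6 CPM in fed PP libraries. The log2 fold change was 0.59 ± 0.19 in PC (edgeR adjusted p = 0.040) and 0.97 ± 0.19 in PP (edgeR adjusted p = 0.0041). The PC call ended without any 1 of fed PC replicates 1 to 3, fasted PC replicates 1 and 2 or fasted PP replicates 1 and 3. Between zones, 0 of 14 were called in fed mice, and in fasted mice 1 was lower in PC. This was Acmsd, the decarboxylase that turns the pathway away from NAD+, with 11.9, 16.2 and 16.2 CPM in fasted PC against 43.4, 20.7 and 34.8 CPM in fasted PP libraries. Its log2 fold change was -1.16 ± 0.27 (edgeR adjusted p = 0.026). That call ended without any fasted library but PP replicate 2. Averaged over both states, Acmsd was at -1.02 ± 0.19 (edgeR adjusted p = 0.0037), and in all 2 genes were higher in PC (Afmid and Ido2) and 3 lower (Acmsd, Qprt and Nadsyn1). Averaged over the zones, 2 rose with fasting (Dhtkd1 and Naprt) and 1 fell (Qprt). The averaged calls of Afmid, Ido2, Qprt, Nadsyn1 and Naprt each ended in 3 or more of the 12 single omissions.

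Of 10 other genes of phenylalanine and tyrosine breakdown and of synthesis and recycling of the biopterin cofactor, 2 rose with fasting in PC and 3 in PP, and none fell. Got1, a cytosolic aspartate aminotransferase, had 352, 390 and 350 CPM in fasted PC against 102, 103 and 98 CPM in fed PC libraries, and 779, 458 and 650 CPM in fasted PP against 166, 182 and 205 CPM in fed PP libraries. Its log2 fold change with fasting was 1.85 ± 0.17 in PC (edgeR adjusted p = 3.6e-05) and 1.77 ± 0.17 in PP (edgeR adjusted p = 6.1e-05). It was the 1 gene of the list called between zones within a feeding state, lower in PC at -0.87 ± 0.16 in fed mice (edgeR adjusted p = 0.0073) and -0.79 ± 0.16 in fasted mice (edgeR adjusted p = 0.011). Gch1, the first enzyme of biopterin synthesis, rose by 0.68 ± 0.16 in PC (edgeR adjusted p = 0.0086) and by 0.60 ± 0.16 in PP (edgeR adjusted p = 0.019), the PP call ending without fed PP replicate 3 or fasted PP replicate 1 or 2. The third call in PP was Il4i1, an amino acid oxidase, at 1.92 ± 0.61 (edgeR adjusted p = 0.042) but at 1.00 CPM or less in every library, and this call ended in 9 of the 12 single omissions.

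**Figure D4:**
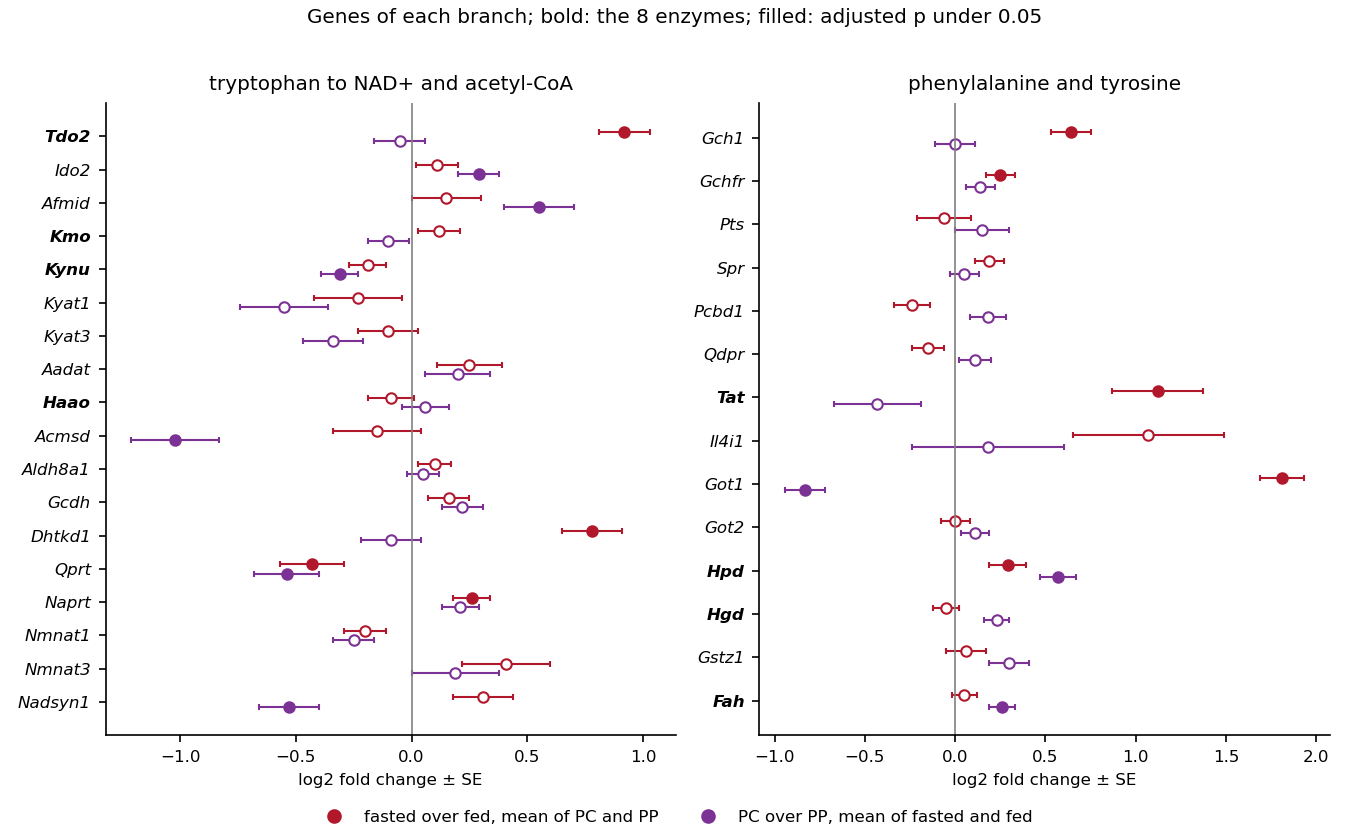
Log2 fold change ± SE (x axis) of genes of each branch, the 8 members in bold, for fasted over fed averaged over the zones and for PC over PP averaged over both states, with filled symbols for an adjusted p under 0.05. Tdo2 and Dhtkd1 lie farthest right with fasting among tryptophan genes and Got1 and Tat among tyrosine genes, and Acmsd and Got1 farthest left for zone.

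Among 8 genes of NAD+ salvage and nicotinamide use, 2 rose with fasting in PC (Sirt1 and Nampt), and in PP 2 rose (Nnmt and Sirt1) and 2 fell (Aox3 and Nadk). Sirt1, an NAD+-consuming deacetylase, gave 0.58 ± 0.17 in PC (edgeR adjusted p = 0.026), a call lost without any 1 of the fed PC libraries or fasted PC replicate 3, and 0.72 ± 0.17 in PP (edgeR adjusted p = 0.011). Nampt, the rate-limiting enzyme of NAD+ salvage, gave 0.31 ± 0.10 in PC (edgeR adjusted p = 0.043), lost in 11 of the 12 single omissions. In PP, Nnmt, which methylates nicotinamide, gave 1.03 ± 0.20 (edgeR adjusted p = 0.0048), Aox3, an aldehyde oxidase, -0.95 ± 0.22 (edgeR adjusted p = 0.011) and Nadk, an NAD+ kinase, -0.46 ± 0.10 (edgeR adjusted p = 0.0064). Between zones, Nampt was lower in fed PC at -0.54 ± 0.10 (edgeR adjusted p = 0.0066; 0.051 without fed PP replicate 2), and in fasted PC Nnmt was lower at -1.39 ± 0.21 (edgeR adjusted p = 0.0019) and Aox3 higher at 1.81 ± 0.22 (edgeR adjusted p = 0.00076). Of 8 amino acid carrier genes, not all of them carriers of aromatic amino acids, 6 could be tested. With fasting, 0 were called in PC and 1 rose in PP, Slc38a4, a neutral amino acid carrier, at 0.93 ± 0.27 (edgeR adjusted p = 0.035), lost in 5 of the 12 single omissions. Slc16a10, a carrier that lets aromatic amino acids leave or enter cells along their gradient, was the 1 carrier called between zones within a feeding state. It had 200, 352 and 260 CPM in fasted PC against 64.1, 75.4 and 85.8 CPM in fasted PP libraries, and its log2 fold change was 1.85 ± 0.34 (edgeR adjusted p = 0.0092). In fed mice it had 214, 197 and 141 CPM in PC against 106, 37.1 and 66.4 CPM in PP libraries, at 1.40 ± 0.34 (edgeR adjusted p = 0.040), lost in 9 of the 12 single omissions.

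Of 12 genes known to respond to glucocorticoids, chosen because Tdo2 and Tat do, 8 rose with fasting in PC and 9 in PP, with none lower, where 11.1% and 8.39% of all genes rose. Their median log2 fold change was 1.85 in PC and 1.76 in PP. The list was chosen with earlier results of these data known, so its counts are a description only. Mt2, a metal-binding protein, had 346, 89 and 119 CPM in fasted PC against 4.01, 3.10 and 5.00 CPM in fed PC libraries. It rose by 5.53 ± 0.68 in PC (edgeR adjusted p = 0.00069), by 4.68 without fasted PC replicate 1, and by 5.35 ± 0.67 in PP (edgeR adjusted p = 0.00091). Cdkn1a, a cell cycle inhibitor, had 3.24, 5.66 and 24 CPM in fasted PC against 0.604, 0.696 and 0.784 CPM in fed PC libraries, and replicate 3 was far above the others. It rose by 3.98 ± 0.74 in PC (edgeR adjusted p = 0.0043), by 2.66 without fasted PC replicate 3, and by 3.61 ± 0.70 in PP (edgeR adjusted p = 0.0063). Lcn2, an iron-carrier-binding protein, was the 1 gene of the list called between zones within a state, at -2.36 ± 0.30 for fasted PC against fasted PP (edgeR adjusted p = 0.00077). Tsc22d3, another of the list, was at -0.50 in PC (edgeR adjusted p = 0.21) and 0.18 in PP (edgeR adjusted p = 0.70). Dusp1 and Zbtb16, also of the list, were likewise not called with fasting in PC or in PP. Of 12 regulators of liver amino acid breakdown, 4 rose and 1 fell in PC, and 4 rose and 3 fell in PP. One of the falls in PP was Cebpa, a liver transcription factor, at -0.54 ± 0.17 (edgeR adjusted p = 0.045), lost in 10 of the 12 single omissions. Ppargc1a, a coactivator of fasting genes, rose by 1.48 ± 0.40 in PC (edgeR adjusted p = 0.023) and by 1.59 ± 0.39 in PP (edgeR adjusted p = 0.018), calls that ended in 4 and 2 of the 12 single omissions. Klf15, a transcription factor of amino acid breakdown, rose by 1.29 ± 0.20 in PC (edgeR adjusted p = 0.00089). Cebpb, a liver transcription factor, rose by 1.27 ± 0.17 in PP (edgeR adjusted p = 0.00056). Each also rose in the other zone, a call kept in all 12 single omissions. Over these, Klf15 in PP gave 1.1 to 1.43 (edgeR adjusted p at most 0.0075). Cebpb in PC gave 0.78 to 1.06 (edgeR adjusted p at most 0.021). Foxo1, another of the list, rose in both zones, so the same 4 regulators rose in PC and in PP. Foxa2, a pioneer factor of liver genes, fell with fasting in PC, at -1.06 ± 0.22 (edgeR adjusted p = 0.0055), and in PP, at -0.87 ± 0.22 (edgeR adjusted p = 0.017), the PP call ending in 4 of the 12 single omissions. Foxa1, its close relative, fell in PP at -1.02 ± 0.21 (edgeR adjusted p = 0.0052). Nr3c1, the glucocorticoid receptor, was at -0.14 in PC (edgeR adjusted p = 0.39) and 0.00 in PP (edgeR adjusted p = 0.99). None of the 12 was called between zones in fed or in fasted mice by edgeR. Without fasted PC replicate 1, the changes with fasting in PC were 1.86 for Got1, 0.59 for Gch1, 0.65 for Sirt1, 1.59 for Ppargc1a, 1.18 for Klf15, -1.07 for Foxa2 and 4.40 for Cdkn1a, and the differences between fasted PC and fasted PP were -1.58 for Nnmt, 1.97 for Aox3, 2.02 for Slc16a10, -2.24 for Lcn2 and -0.77 for Got1, all still past the test.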

How the data were processed

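Per the labels' protocols, a NEBNext Ultra kit was used, and it keeps no strand information. The deposited values are estimated counts per gene, which the authors made with kallisto 0.46.0 and the build mm10, per the submitters' processing notes; how transcripts were summed to genes was not given in the sources used here. Of 28030 identifiers, 27566 had a symbol. Estimated counts divide reads shared by similar genes by a model. Between 28.03% and 32.83% of values per library were not whole, and all were rounded, which moved a total by at most 120.8 counts.

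Genes were filtered with filterByExpr (12086 kept), scaled by TMM and fitted in R 4.3.3 by the robust quasi-likelihood method of edgeR 4.0.16, with 4 group means over 12 libraries and 8 residual degrees of freedom. Benjamini-Hochberg adjustment ran over all genes tested in each of 7 comparisons, and a gene was called at an adjusted p under 0.05. SE is the size of the unshrunk log2 fold change over the root of its F statistic. Fits were tested on simulated data. Alternatives included DESeq2 1.42.0, other scalings, no filter and leaving out each library. Exon lengths and positions come from GENCODE M21 (GRCm38), in which no exon of another gene overlaps a member's exons, and promoters from RefSeq.

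Named were all 8 members, from each list and comparison of 2 groups up to 2 called genes per direction with the largest change and a mean of at least 1 CPM, and the 2 genes closest to each member. Genes named beside these were chosen after their values were seen. The members and lists were chosen with earlier results of these data known. Some listed genes and 1 motif are not reported here.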

Additional observations from a re-analysis of the deposited data

How the results depend on the processing

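The calls of Tdo2 with fasting (PC, PP and averaged), of Tat with fasting averaged over the zones, and of Hpd between zones (fed and averaged) held under every alternative run. Counts moved by over 1.5 times were as follows. With no filter on low counts, members called were 0 between fasted zones, 1 with fasting in PC and 1 in PP, and 1 gene was called for the difference of fasting responses. With DESeq2, 929 genes and 2 members were called between fed zones, 2 members between fasted zones, 4 members with fasting in PP and 11 genes for the difference. Fitting only the 2 groups compared gave 376 genes and 0 members between fasted zones and 1 member with fasting in PP. Library totals without TMM, added after seeing the data, gave 2 members between fed zones, 2 between fasted zones and 1 with fasting in PP, and shifted the median of all genes by less than 0.1. They also turned the sign of Tdo2 between averaged zones (0.03), of Fah with fasting in PC (-0.02), PP (-0.05) and averaged (-0.03), and of Hgd with fasting in PP (-0.06), none of them called. For these the cause was not tested.

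Leaving out 1 library at a time gave 386 to 1005 genes between fasted zones, 292 to 701 between fed zones, 1593 to 2618 with fasting in PC, 1405 to 2414 in PP and 0 to 2 for the difference. Members called ran from 0 to 1 between fasted zones, 1 to 4 between averaged zones, 1 to 3 with fasting in PC and 1 to 4 in PP. Uncalled log2 fold changes that crossed 0 were Tdo2 between averaged zones (-0.09 to 0.02), Haao between fasted zones (-0.09 to 0.08) and with fasting in PP (-0.15 to 0.14), Hgd with fasting in PP (-0.04 to 0.09) and Kmo in PC (-0.23 to 0.04), and, for the difference of responses, Fah (-0.08 to 0.06), Haao (-0.28 to 0.00) and Tat (-0.19 to 0.42).

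Whether same-numbered libraries pair was not settled. For PC and PP libraries of one number, deviations correlated at 0.394, -0.022 and 0.258 in fed mice. In fasted mice they correlated at 0.258, -0.151 and 0.149. Within a state, PC and PP libraries of different numbers ranged from -0.343 to 0.273, as did all 36 pairs of different numbers. The full set of 18 same-numbered pairs, from -0.151 to 0.394, also joins fed with fasted libraries. With a block for each number within a feeding state, 744 genes and 1 member were called between fed zones. Between fasted zones it called 882 genes and 1 member. With the replicate number as a block, 625 genes were called between fed zones, 796 between fasted zones, 2696 with fasting in PC and 2223 in PP, with 1, 1, 2 and 2 members. Averaged over both states or both zones, the block called 4 members each, adding Hgd between zones (edgeR adjusted p = 0.044) and Kynu with fasting (-0.20, edgeR adjusted p = 0.043). It ended the calls of Dhtkd1 with fasting in PC (edgeR adjusted p = 0.062), Slc16a10 between fed zones (0.084), Il4i1 with fasting in PP (0.066), Afmid between averaged zones (0.056) and Qprt with fasting averaged over the zones (0.056). With 3 libraries a group, a call near the threshold rests on few samples.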
